A study of Mus musculus with 82 samples.

Results

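The 46 genes described here encode proteins that copy DNA or divide the cell, and they were read in mouse T cells that recognize ovalbumin (OVA). They were taken as a named set of gene symbols, and all 46 were found among the 21823 genes shared by the 3 count tables. By role, 19 belong to the start and running of S phase, 23 to mitosis and its preparation, and 4 (Mybl2, Stmn1, Tubb5 and Hmgb2) were kept apart as other members. All 46 had enough counts to be tested in every comparison below.

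OT-I cells are of the CD8 lineage and OT-II cells of the CD4 lineage, each with a transgenic receptor for an OVA peptide. Both were transferred into wild-type mice (C57BL/6 in the prophylactic labels) and sorted from the pooled cells of spleen and lymph nodes 4 days after saline, 5 µg of plain OVA, or pGal, a synthetically glycosylated OVA whose amount is given once as 5 µg and once as a molar equivalent of the OVA. In the prophylactic experiment antigen followed transfer by 1 day, each library pooled 3 mice, and the groups were 5 libraries each of OT-I saline, OVA and pGal, 5 of OT-II saline, 4 of OT-II OVA and 5 of OT-II pGal, spread over 2 labelled batches. Therapeutic mice all received a subcutaneous immunization with OVA in complete Freund's adjuvant after transfer and were treated a month later. Each therapeutic library came from 1 mouse, and the labels give 10 OT-I OVA, 10 OT-I pGal, 8 OT-I saline, 8 OT-II OVA, 10 OT-II pGal and 7 OT-II saline libraries. The therapeutic strain label counts upward from sample to sample, so the strain of those mice is known only as wild type.

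The coreceptors Cd8a and Cd4 mark OT-I and OT-II cells. In 71 of the 82 libraries the coreceptor went with the label. In the other 11, all therapeutic, it went against it: 6 libraries labelled OT-I held Cd4 at 406.8 to 1445 counts per M counts (CPM) and Cd8a at 0.65 to 2.67 CPM, and 5 labelled OT-II held Cd8a at 841.6 to 1351 CPM. Under both labels these were replicates 6 and 8 of OVA, 5 and 7 of pGal and 3 of saline. Only OT-I saline replicate 6 had no OT-II library of its number among them. These 11 were left out of the values and fits below and were moved to no other group, which leaves 8 OT-I OVA, 8 OT-I pGal, 6 OT-I saline, 6 OT-II OVA, 8 OT-II pGal and 6 OT-II saline libraries. Of the 71, 2 prophylactic OT-I libraries also held Cd4, at 162 CPM (the first OVA library of batch 1) and 207 CPM (the second pGal library of batch 1), where the other OT-I libraries held at most 40.4 CPM. Cd8a reached 86.1 and 116 CPM in 2 prophylactic OT-II libraries, against at most 17.6 CPM in the rest. Total counts ranged from 21.2 to 68.2 M per library. Transcripts of B cells stood out in some libraries, with Cd79a reaching 1372 CPM in 1 prophylactic OT-II OVA library and 1036 CPM in 1 prophylactic OT-II pGal library, the same 2 that held Cd8a; their values are given beside the results they touch.

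A resting T cell sits outside the cycle. After antigen recognition, cyclin E and the E2F factors open S phase, the MCM ring is loaded by Cdc6 and Cdt1 and opens the DNA, and thymidylate synthase, thymidine kinase and ribonucleotide reductase supply deoxynucleotides. Mitosis follows under cyclin B with Cdk1, the Aurora and Polo kinases, the spindle motors and the anaphase-promoting complex, and naive T cells pass through many such rounds in the days after priming. Many S phase genes carry E2F sites in their promoters, while genes of the later phase carry a cell cycle homology region, or CHR, together with CCAAT boxes.

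Promoter windows from RefSeq (GRCm38.p6, 250 bases before to 50 bases after the first listed start) were matched for 37 of the 46 genes. The letters searched on both strands were TTTGAA and TTCGAA for the CHR, CCAAT for the CCAAT box, and TTTCCCGC, TTTGGCGC, TTTCGCGC and TTTGCCGC for E2F. CHR letters lay in 14 of 18 mitosis windows (77.8%), against 3 of 16 S phase windows (18.8%) and 19.4% of all 27025 windows. CHR and CCAAT letters occurred together in the same 14 mitosis windows and in 7.7% of all windows. E2F letters lay in 6 of 16 S phase windows (37.5%), in 1 of 18 mitosis windows (5.56%) and in 2.32% of all windows. CCAAT letters were common to both, in 16 of 18 mitosis windows and 10 of 16 S phase windows, against 37.9% of all windows. A match describes these letters only, and a window without one says nothing of the factor.

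The 160 bases before the start are printed for 5 members, 3 of mitosis and 2 of S phase, because they show how the letters of each class lie in genes whose values follow. Capitals mark every match of the searched letters on either strand, and each run reads 5′ to 3′ on the gene's strand. The windows lie at chr10:69352913-69353072 (minus strand, Cdk1), chr4:118437344-118437503 (minus, Cdc20), chr11:99024190-99024349 (minus, Top2a), chr8:75109349-75109508 (plus, Mcm5) and chr11:98907991-98908150 (plus, Cdc6).
Cdk1: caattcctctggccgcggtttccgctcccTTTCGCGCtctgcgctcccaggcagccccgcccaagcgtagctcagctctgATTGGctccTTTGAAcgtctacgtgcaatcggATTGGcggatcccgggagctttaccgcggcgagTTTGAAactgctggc
Cdc20: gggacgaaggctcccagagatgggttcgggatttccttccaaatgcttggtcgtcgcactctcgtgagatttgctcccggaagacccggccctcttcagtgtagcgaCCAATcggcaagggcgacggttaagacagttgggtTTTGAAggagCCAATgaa
Top2a: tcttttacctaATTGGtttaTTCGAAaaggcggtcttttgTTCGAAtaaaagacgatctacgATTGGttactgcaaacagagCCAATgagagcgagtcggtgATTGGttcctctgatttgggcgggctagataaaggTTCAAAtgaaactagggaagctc
Mcm5: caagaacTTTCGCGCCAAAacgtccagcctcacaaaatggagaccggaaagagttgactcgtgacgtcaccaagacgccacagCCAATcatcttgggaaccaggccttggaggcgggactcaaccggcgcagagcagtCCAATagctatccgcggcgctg
Cdc6: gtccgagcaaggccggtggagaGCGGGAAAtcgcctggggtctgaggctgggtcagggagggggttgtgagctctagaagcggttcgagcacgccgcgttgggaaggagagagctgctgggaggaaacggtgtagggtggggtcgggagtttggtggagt

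Cdk1, the mitotic kinase, was the mitosis member that held E2F letters as well as CHR and CCAAT letters. Top2a, which untangles DNA before chromosomes separate, held CHR letters at 4 places of its full window, and Cdc20, an activator of the anaphase-promoting complex, at 1. In Mcm5, a subunit of the replicative helicase, the capitals at the 5′ end are 2 overlapping E2F matches on opposite strands. Cdc6, which loads that helicase, held E2F letters and neither CHR nor CCAAT letters.

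The mean log2 CPM over the 46 genes gave each library 1 level, described here with no test. In prophylactic OT-I cells it was 3.91 ± 0.28 after saline, 5.04 ± 0.34 after OVA and 4.77 ± 0.65 after pGal (SD, n = 5 each). Prophylactic OT-II cells lay lower, at 2.83 ± 0.53 after saline (n = 5), 4.18 ± 0.65 after OVA (n = 4) and 3.77 ± 0.81 after pGal (n = 5). In therapeutic OT-I cells the means were 5.26 ± 0.87 after saline (n = 6), 5.23 ± 0.93 after OVA (n = 8) and 5.13 ± 0.74 after pGal (n = 8). Therapeutic OT-II cells stood at 3.39 ± 1.09 (n = 6), 3.43 ± 0.52 (n = 6) and 3.55 ± 0.63 (n = 8). So antigen groups of the prophylactic experiment averaged more than 1 SD of saline above saline, and within each cell type the group means of the therapeutic experiment lay within 1 SD of each other. In sorted bulk cells, fewer dividing cells and less of these transcripts per cell cannot be told apart.

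**Figure D1:**
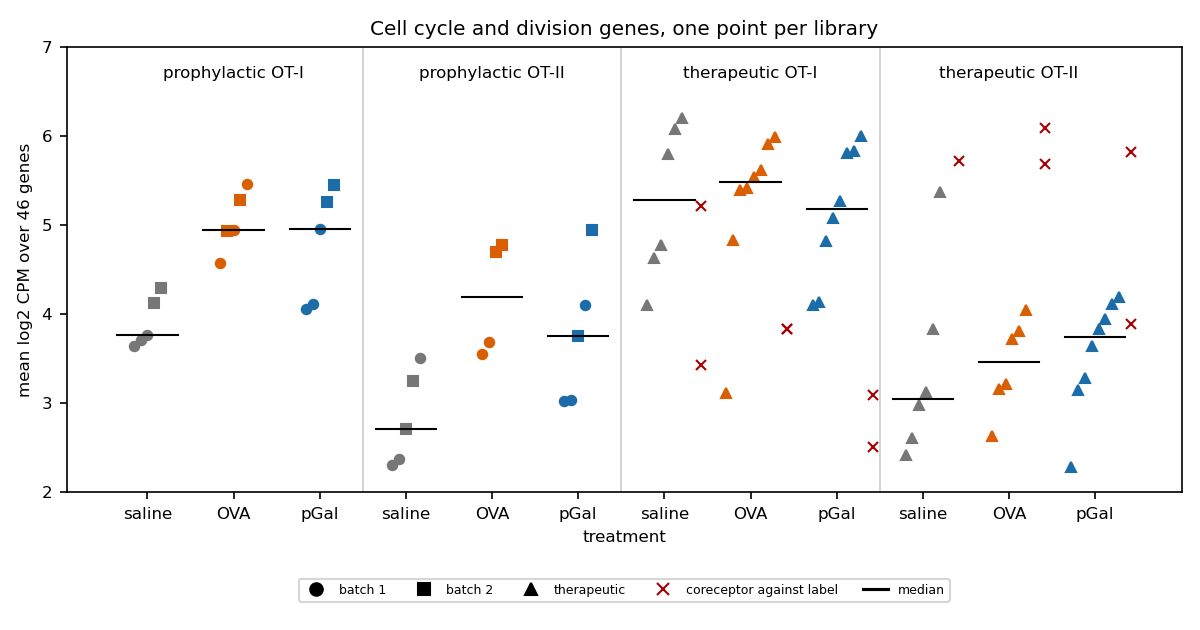
Mean log2 CPM over the 46 genes (vertical axis) in each library of the 12 groups (horizontal axis); circles are prophylactic batch 1, squares batch 2 and triangles therapeutic libraries, red crosses are libraries whose coreceptor goes against the label, and lines are medians of the libraries that match. Prophylactic saline groups have the lowest median within their cell type, and the 3 treatments of each therapeutic cell type overlap.

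The labelled batches differed in this level. In OT-I cells, batch 1 averaged 3.71 after saline, 5.00 after OVA and 4.38 after pGal, and batch 2 averaged 4.21, 5.11 and 5.35. So pGal lay below OVA in batch 1 and above it in batch 2. For OT-II cells the batch 1 means were 2.73, 3.62 and 3.39 and the batch 2 means 2.98, 4.74 and 4.35. The batch 1 OT-II pGal libraries stood at 3.02, 3.03 and 4.10, the last of them rich in B cell transcripts. Saline libraries of that batch stood at 3.50, 2.37 and 2.31, so the groups overlapped. Every prophylactic fit carries the batch as a term. What differed between the batches is not stated in the labels.

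Plain OVA against saline in prophylactic OT-I cells gave the broadest change. Of the 46 members 31 rose and 0 fell, by edgeR's quasi-likelihood test at a Benjamini-Hochberg adjusted p under 0.05 over all genes; of the 13802 genes tested 5.39% were called, 4.12% higher and 1.28% lower. The median log2 difference was 1.39 over the members, and that of all genes tested was −0.00072. Mitosis and S phase parted: 21 of 23 mitosis members rose (median 1.82), against 7 of 19 S phase members (median 0.32) and 3 of 4 other members. The labels name separate samples but not which mice OT-I and OT-II libraries share, so these p-values measure the spread between labelled libraries.

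Mki67, a chromosome-coating protein of cycling cells, read 5.28, 9.56 and 3.73 CPM in the batch 1 saline libraries and 23.6 and 15.3 CPM in those of batch 2. After OVA it read 27.8, 62.0 and 44.2 CPM in batch 1 and 48.2 and 68.2 CPM in batch 2. All 5 OVA libraries were above all 5 saline libraries, and the log2 difference was 2.44 (SE 0.36, adjusted p 0.0016 by edgeR). Mki67 (ENSMUSG00000031004) lies at chr7:135689784-135716361 on the minus strand in GRCm38.

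Top2a read 14.6, 17.9 and 13.7 CPM in batch 1 and 21.3 and 23.2 CPM in batch 2 after saline. After OVA the values were 31.9, 58.7 and 42.4 CPM, then 52.6 and 64.9 CPM. The groups did not overlap in either batch, and the difference was 1.51 (SE 0.24, edgeR adjusted p 0.0023). Top2a (ENSMUSG00000020914) lies at chr11:98992943-99024189 on the minus strand.

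Ccnb1, the cyclin B that activates Cdk1, read 3.15, 2.81 and 3.63 CPM and then 7.35 and 6.13 CPM after saline. OVA libraries read 12.9, 26.9 and 17.6 CPM, then 22.2 and 30.0 CPM. Every OVA library stood above every saline library, with a log2 difference of 2.38 (SE 0.27, edgeR adjusted p 0.0003).

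The largest log2 differences belonged to Ccna2 (2.65, SE 0.40), the cyclin A that spans S phase and G2, Ccnb2 (2.55, SE 0.42) and Birc5 (2.52, SE 0.34), the survivin subunit of the chromosomal passenger complex. Birc5 read 4.68 to 9.26 CPM after saline and 24.3 to 61.4 CPM after OVA, with no overlap. Among kinases, Plk1 rose by 2.03 (SE 0.39), Aurkb, the partner of survivin, by 1.97 (SE 0.36) and Cdk1 by 1.82 (SE 0.35). The edgeR adjusted p-values of these 6 genes ran from 0.00078 to 0.0072. The spindle motor Kif11 rose by 2.08 and the checkpoint kinase Bub1 by 2.01. Cdc20 read 13.4 to 23.6 CPM after saline and 23.1 to 34.7 CPM after OVA, with a small overlap, and rose by 0.87 (SE 0.23, edgeR adjusted p 0.038). The 2 mitosis members that were not called were Aurka and Kif23, the latter a motor of the central spindle at −0.10 (SE 0.16).

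The S phase members that rose included 3 enzymes of nucleotide supply. Rrm2, the regulated subunit of ribonucleotide reductase, rose by 1.72 (SE 0.37), Tk1, thymidine kinase, by 1.65 (SE 0.33) and Tyms, thymidylate synthase, by 1.29 (SE 0.25). Cdc6 rose by 1.45 (SE 0.28, edgeR adjusted p 0.0072), Ccne2, a cyclin E, by 1.32, Cdc45, a part of the active helicase, by 1.25 and Uhrf1, which copies DNA methylation to new strands, by 0.75. Cdc6 read 5.03 to 9.53 CPM after saline and 12.6 to 30.0 CPM after OVA.

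The 6 MCM subunits and Pcna, the sliding clamp of the polymerase, did not pass the test. Mcm2 read 192, 191 and 174 CPM, then 199 and 225 CPM after saline, and 155, 195 and 189 CPM, then 216 and 186 CPM after OVA; the groups overlapped. Log2 differences were −0.03 for Mcm2, 0.17 for Mcm3, 0.16 for Mcm4, 0.30 (SE 0.11, edgeR adjusted p 0.12) for Mcm5, 0.31 for Mcm6, −0.08 for Mcm7 and 0.18 for Pcna. Ccne1 stood at 0.32 (SE 0.15). Cdt1, the second loader of the helicase, had the lowest value at −0.42 (SE 0.13, edgeR adjusted p 0.084).

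Of the other members, Hmgb2, a chromatin protein, rose by 1.48 (SE 0.22), Mybl2, a factor that binds CHR promoters with its partners, by 1.42 and Stmn1, which destabilizes microtubules, by 1.31. Tubb5 stood at −0.21. Hmgb2 and Tubb5 have near-identical copies elsewhere in the genome, so how reads were shared among them is uncertain.

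**Figure D2:**
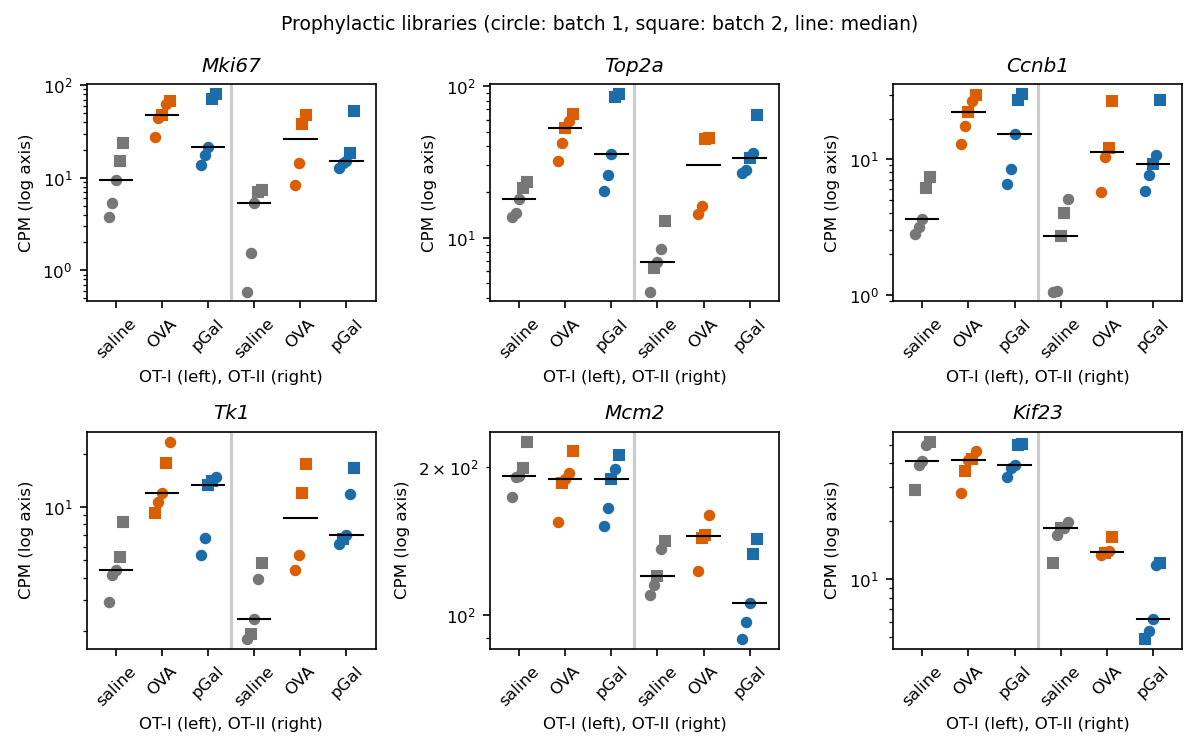
CPM on a log axis in each prophylactic library for Mki67, Top2a, Ccnb1, Tk1, Mcm2 and Kif23, with OT-I groups on the left and OT-II groups on the right of each panel. Within each batch and cell type the saline libraries lie below every library given antigen for Mki67, Top2a and Ccnb1, while Mcm2 in OT-I cells stays between 152 and 225 CPM in all 3 treatments.

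The pGal form against saline in prophylactic OT-I cells raised 19 of 46 members and lowered 0, against 2.64% and 0.710% of all genes tested (3.35% in all). The 19 comprised 16 mitosis members, 1 S phase member (Tyms) and 2 others (Stmn1 and Hmgb2), and the median was 0.96 over all members, 1.60 over mitosis and 0.22 over S phase. Ccna2 was 2.24 higher (SE 0.39), Birc5 2.11 (SE 0.34) and Ccnb2 1.91 (SE 0.41). Ccnb1 rose by 1.87 (SE 0.27, edgeR adjusted p 0.0029) and Top2a by 1.33 (SE 0.24, edgeR adjusted p 0.011).

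In pGal libraries Mki67 read 17.6, 13.7 and 21.7 CPM in batch 1 and 70.6 and 79.7 CPM in batch 2. All were above the saline libraries of their own batch, but the batch 1 values overlapped the batch 2 saline values. The log2 difference was 1.73 (SE 0.35, edgeR adjusted p 0.018). Top2a showed the same split, at 20.3, 26.0 and 35.4 CPM against 84.1 and 88.0 CPM, and so did Ccnb1, at 6.57, 8.45 and 15.5 CPM against 30.2 and 27.4 CPM.

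The kinases Cdk1 (1.62, SE 0.35), Plk1 (1.54, SE 0.38) and Aurkb (1.36, SE 0.35) had edgeR adjusted p-values of 0.025, 0.040 and 0.045. Tyms read 21.0, 19.0 and 35.6 CPM, then 31.3 and 40.2 CPM, above all saline libraries, whose highest was 18.1 CPM, and rose by 1.10 (SE 0.25, edgeR adjusted p 0.029). Rrm2 at 1.12 (SE 0.36, edgeR adjusted p 0.11) and Cdc6 at 0.82 (SE 0.28) did not pass. Mcm5 stood at 0.17, Pcna at 0.16 and Ccne1 at 0.22, and the lowest values were −0.49 for Cdt1, −0.10 for Mcm7 and −0.09 for Mcm2.

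This count depended on single libraries. Here and below, some counts from alternative fits stand without the share of all genes called. For those, a change over all genes cannot be told apart from one in the members. It was 0 in batch 1 alone (27 members at an unadjusted p under 0.05), 12 in batch 2 alone, 5 without the second pGal library of batch 2 and 6 without the first. It was 11 without the third pGal library of batch 1, and 8, 8 and 7 without the third saline library of batch 1 and the first and second of batch 2. Summed B cell markers reached 1693 CPM in 1 saline library and ran from 70.4 to 158 CPM after pGal; without the 2 OT-I libraries with Cd79a over 100 CPM, 7 members were called, all higher. Without the 2 OT-I libraries with Cd4 over 100 CPM, 19 were called after pGal and 29 after OVA, all higher. The OVA count was 25 in batch 1 alone and 1 in batch 2 alone.

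Set directly against each other in OT-I cells, pGal and OVA gave no called member in edgeR, as in 0% of all genes tested, and DESeq2 also called 0. An unadjusted p under 0.05 was reached by 4 members in edgeR, beside 3.04% of all genes, and by 5 in DESeq2. Differences were small and mostly negative: 43 members lay below 0 and 3 above, including all 19 S phase members below 0, with a median of −0.20. The lowest were Cdc45 at −0.77 (SE 0.25), Ttk, a spindle checkpoint kinase, at −0.71 (SE 0.44) and Mki67 at −0.71 (SE 0.34), and the highest were Tubb5 at 0.19, Cenpf at 0.13 and Kif23 at 0.10. Other log2 differences were −0.63 for Cdc6, −0.61 for Aurkb, −0.60 for Rrm2, −0.51 for Ccnb1, −0.49 for Plk1, −0.41 for Birc5, −0.20 for Cdk1 and Tyms, −0.18 for Top2a, −0.14 for Mcm5, −0.10 for Ccne1 and −0.02 for Pcna. The sign differed between batches: the member median was −0.70 in batch 1 alone and 0.21 in batch 2 alone, each with 0 called.

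**Figure D3:**
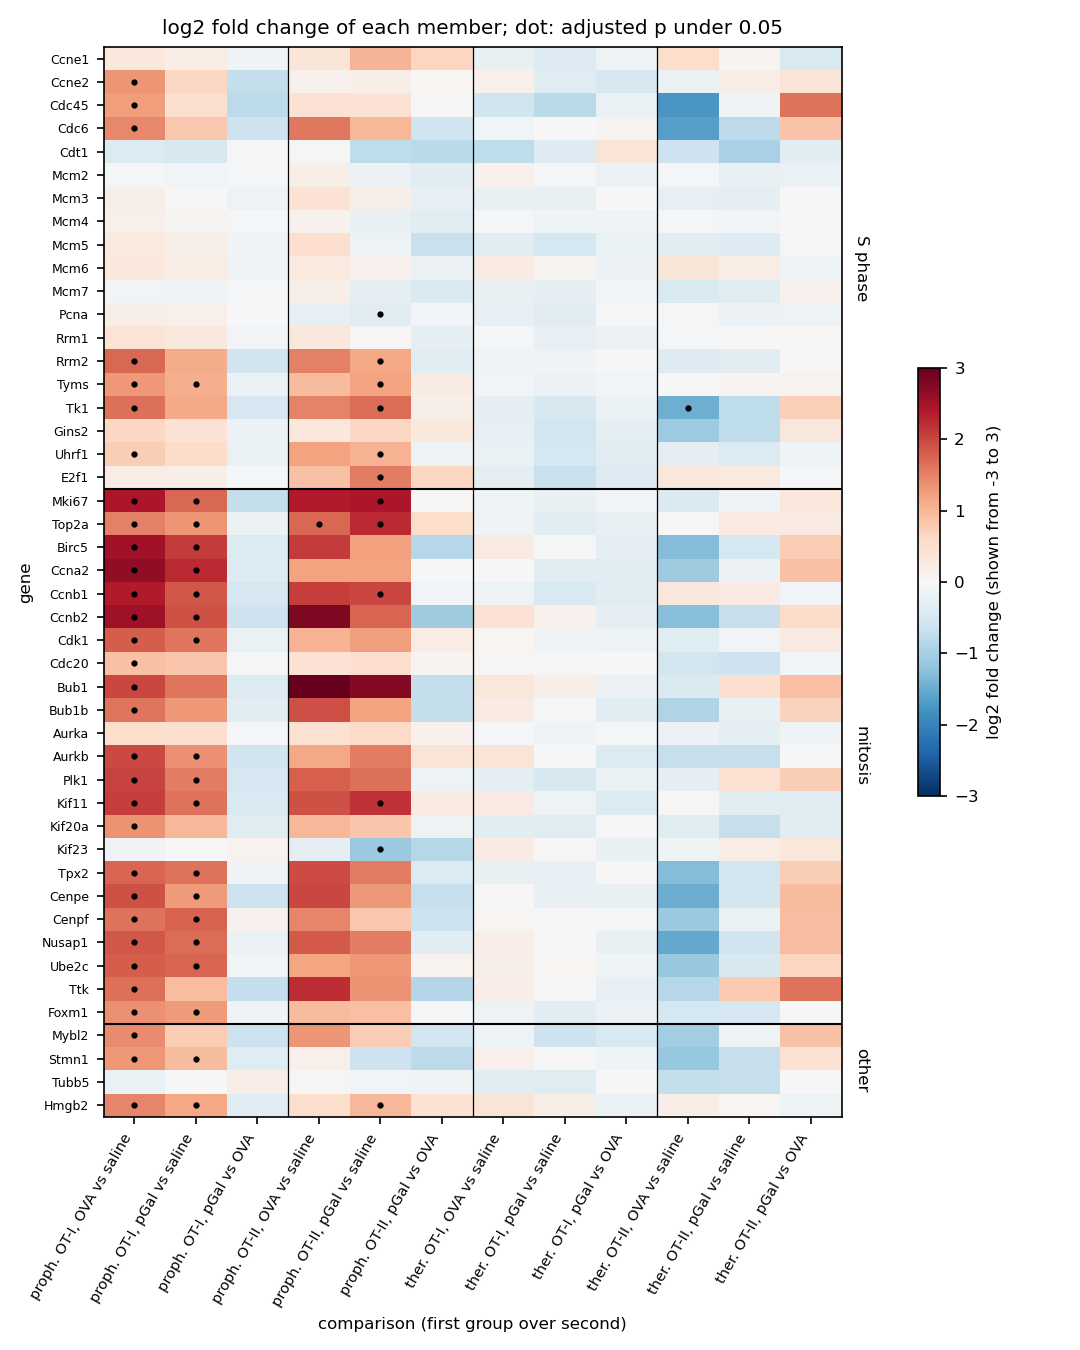
Log2 differences (colour, from −3 to 3) of the 46 genes (rows, by role) in the 12 treatment comparisons (columns), with a dot where the edgeR adjusted p is under 0.05. The 2 prophylactic OT-I comparisons with saline hold 31 and 19 dots, most of them in the mitosis rows. Prophylactic OT-II comparisons with saline also hold dots, in S phase, mitosis and other rows, and the therapeutic columns hold 1, Tk1.

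In prophylactic OT-II cells, pGal against saline raised 10 members and lowered 2, against 6.37% of the 14128 genes tested raised and 5.34% lowered (11.7% in all). The median was 1.00 over the members and 0.04 over all genes. Those that rose were Tk1, E2f1, Tyms, Rrm2 and Uhrf1 of S phase, Mki67, Top2a, Kif11 and Ccnb1 of mitosis, and Hmgb2. Pcna and Kif23 fell.

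Top2a read 8.40, 4.41 and 6.87 CPM in batch 1 and 6.27 and 12.8 CPM in batch 2 after saline, and 36.1, 27.8 and 26.6 CPM, then 64.1 and 33.3 CPM after pGal. Every pGal library was above every saline library, with a log2 difference of 2.23 (SE 0.28, edgeR adjusted p 0.00024). For Mki67 the saline values were 5.27, 0.588 and 1.55 CPM, then 7.06 and 7.38 CPM, and those after pGal 12.8, 14.5 and 15.3 CPM, then 53.2 and 18.5 CPM. These groups did not overlap either, and the difference was 2.43 (SE 0.47, edgeR adjusted p 0.0047).

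E2f1, a factor that turns on S phase genes, read 6.56, 2.25 and 1.31 CPM, then 4.84 and 5.67 CPM after saline and 9.90, 10.7 and 13.3 CPM, then 13.0 and 12.5 CPM after pGal. Its difference was 1.54 (SE 0.36, edgeR adjusted p 0.013), with all pGal libraries higher. Tk1 read 1.80 to 4.81 CPM after saline and 6.17 to 16.8 CPM after pGal, without overlap, a difference of 1.67 (SE 0.39, edgeR adjusted p 0.014). Other increases were 2.17 for Kif11, 2.00 for Ccnb1, 1.20 for Tyms, 1.16 for Rrm2, 1.04 for Uhrf1 and 0.98 for Hmgb2.

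Kif23 moved the other way. It read 17.1, 19.9 and 18.5 CPM, then 12.1 and 18.4 CPM after saline and 5.37, 6.20 and 11.8 CPM, then 12.1 and 4.90 CPM after pGal. The highest pGal library and the lowest saline library lay together at 12.09 CPM to the precision printed, and the log2 difference was −1.11 (SE 0.27, edgeR adjusted p 0.017). Kif23 (ENSMUSG00000032254) lies at chr9:61915905-61946774 on the minus strand. Pcna, at 122 to 161 CPM after saline and 110 to 143 CPM after pGal, overlapped between groups and fell by 0.33 (SE 0.10, edgeR adjusted p 0.049). That call was lost in 11 of the 14 fits that leave out 1 library, in each batch alone, with RLE factors (edgeR adjusted p 0.059), with no filter (0.061) and with a replicate block (0.12). Rrm2 lost its call in 9 of the 14 fits.

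Several mitosis members were high in some pGal libraries only, and did not pass. Bub1 had the highest log2 difference, 2.76, with an SE of 1.51, since it read 0 in 3 of 5 saline libraries and 0.0701 to 9.84 CPM after pGal. Plk1 stood at 1.64 (SE 0.74), Aurkb at 1.53 (SE 0.81), Cdk1 at 1.25 (SE 0.54) and Birc5 at 1.23 (SE 0.68, edgeR adjusted p 0.29). Birc5 read 2.26, 2.14 and 10.3 CPM, then 21.3 and 7.89 CPM after pGal, against 0.901 to 7.75 CPM after saline. Of S phase, Cdc6 stood at 1.00, Ccne1 at 1.01 and Mcm5 at −0.15, and Cdt1 at −0.75 and Stmn1 at −0.63 were the lowest after Kif23.

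Plain OVA against saline in OT-II cells called 1 member in edgeR, Top2a, against 0.156% of all genes raised and 0.00708% lowered. The member median was 1.02, with 44 members above 0, 2 below and 21 at an unadjusted p under 0.05 (7.32% of all genes); DESeq2 called 11 (1.03% of all genes). Top2a read 14.4 and 16.2 CPM in batch 1 and 45.5 and 44.4 CPM in batch 2, above all saline libraries, and rose by 1.71 (SE 0.29, edgeR adjusted p 0.033). That call was lost in 10 of the 14 fits that leave out 1 library, and 4 members were called without the first saline library of batch 1.

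Mki67 after OVA read 8.33 and 14.3 CPM in batch 1 and 47.8 and 38.3 CPM in batch 2. All 4 values were above all saline values, yet the difference of 2.39 (SE 0.48, edgeR adjusted p 0.10) did not pass. The highest differences were 3.47 for Bub1 (SE 1.61) and 2.80 for Ccnb2 (SE 0.64), and the lowest were −0.26 for Kif23, −0.24 for Pcna and 0.04 for Tubb5. Further values were 2.09 for Birc5, 2.07 for Ccnb1, 1.79 for Plk1, 1.16 for Aurkb and 1.04 for Cdk1, and 1.59 for Cdc6, 1.50 for Rrm2, 0.96 for Tyms, 0.51 for Mcm5 and 0.37 for Ccne1.

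OT-II pGal against OVA called 0 members in edgeR, against 1.87% of all genes, with 9 members at an unadjusted p under 0.05, beside 14.9% of all genes; DESeq2 called 4, beside 6.47% of all genes. Both counts lie near those shares. The median was −0.16, with 17 members above 0 and 29 below. Lowest were Ccnb2 at −1.07 (SE 0.60), Ttk at −0.88 and Birc5 at −0.85, and highest were E2f1 at 0.65, Ccne1 at 0.64 and Top2a at 0.52. The rest of the main panel lay at 0.38 for Aurkb, 0.24 for Tyms, 0.22 for Cdk1, 0.04 for Mki67, −0.07 for Ccnb1, −0.08 for Pcna, −0.15 for Plk1, −0.34 for Rrm2, −0.59 for Cdc6 and −0.66 for Mcm5 (SE 0.19). Kif23 read 13.3 to 16.6 CPM after OVA and 4.90 to 12.1 CPM after pGal and did not overlap.

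Transcripts of B cells stood high in 1 OT-II library of each antigen group. Summed over 10 markers they reached 3784 CPM in the third pGal library of batch 1 and 7410 CPM in the second OVA library of batch 2, while the other pGal libraries read 41.5 to 69.7 CPM, the other OVA libraries 67.9 to 113 CPM and the saline libraries 53.2 to 785 CPM. Group medians were 110 CPM after saline, 90.9 after OVA and 68.4 after pGal. The fitted log2 differences had a median over the 10 markers of 3.05 for pGal and 2.41 for OVA against saline, with 0 called in either. The same 2 libraries led the myeloid markers (3319 and 2108 CPM, group medians 150 to 181), the germinal centre and plasma cell markers (692 and 694 CPM, elsewhere in prophylactic OT-II cells 128 to 257) and the NK cell markers (292 and 448 CPM, elsewhere 14.0 to 48.7). Erythroid markers ran from 119 to 1106 CPM after saline, 232 to 586 after OVA and 102 to 530 after pGal. None of Cd79a, Cd79b and Ms4a1 was at 0 in any of the 71 libraries. The pGal library with most of them had a mean log2 CPM over the 46 genes of 4.10, beside 3.02 and 3.03 in the others of its batch, and the OVA library with most of them 4.70, beside 4.78. Without the libraries with Cd79a over 100 CPM, 10 members were called for pGal against saline (7 higher, 3 lower), 0 for OVA against saline and 4, all lower, for pGal against OVA. Their part in the member levels was not tested beyond that.

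Single batches gave 6 called members (4 higher, 2 lower) in batch 1 and 0 in batch 2 for OT-II pGal against saline, with medians of 0.58 and 1.35. For OVA against saline they gave 0 and 0, with medians of 0.56 and 1.53. For pGal against OVA, 1 member was called lower in batch 1 alone.

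S phase and mitosis members were next averaged apart. In prophylactic OT-I cells the S phase mean was 5.26 after saline, 5.82 after OVA and 5.59 after pGal, and the mitosis mean 2.47, 4.12 and 3.80. OT-II cells had S phase means of 4.40, 5.09 and 4.90 and mitosis means of 1.04, 3.08 and 2.47. The mitosis mean thus spread more between treatments than the S phase mean in both cell types; their scales differ between genes and only differences within a mean are read here. Within OT-I batches, the mitosis mean was 2.14, 4.00 and 3.19 in batch 1 and 2.96, 4.28 and 4.72 in batch 2.

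**Figure D4:**
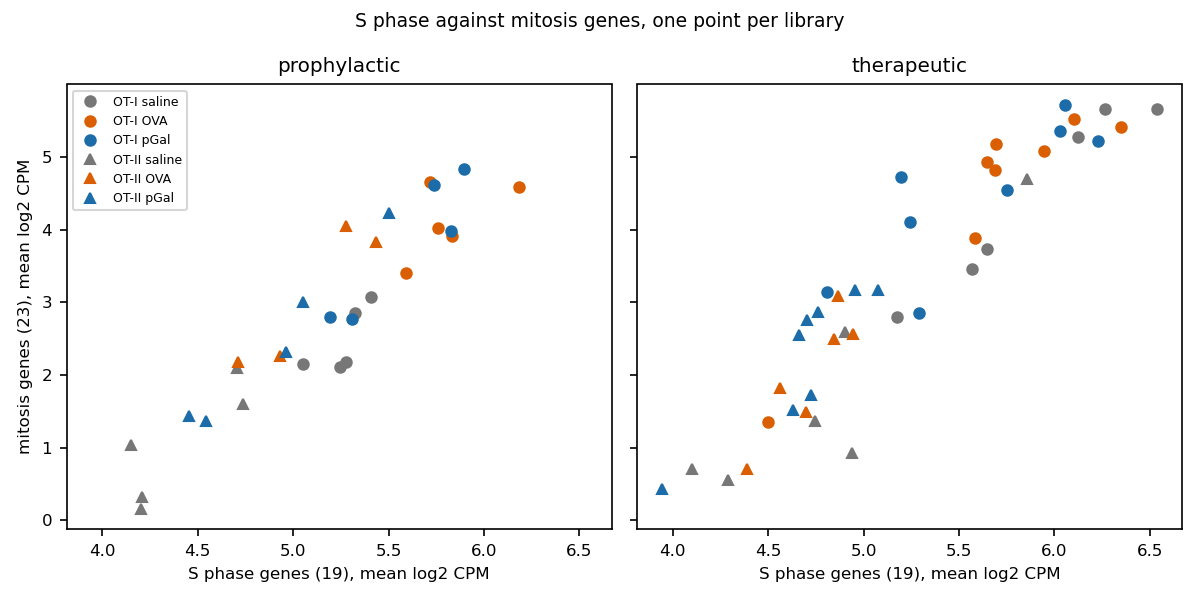
Mean log2 CPM over the 19 S phase genes (horizontal axis) and over the 23 mitosis genes (vertical axis) in each library, with the prophylactic experiment in 1 panel and the therapeutic experiment in the other. Prophylactic saline libraries lie on average toward the lower left within each cell type, with some pGal libraries of batch 1 among them. Therapeutic OT-I libraries with a matching coreceptor have mitosis means of 1.35 to 5.72 with no order by treatment.

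Whether the cell types responded differently was tested as a difference of differences. The fit spanned all 12 groups, so its dispersion and standard errors also draw on the therapeutic libraries. For OVA against saline, OT-I minus OT-II, 0 members were called in edgeR against 0.0174% of 17194 genes, with 1 at an unadjusted p under 0.05 (4.41% of all genes). The median was 0.06, and the extremes were Ccna2 at 1.30 (SE 1.22) and Bub1 at −1.38 (SE 1.75). For pGal against saline 0 were called against 0.204%, with 3 at an unadjusted p under 0.05 (6.03% of all genes). Here Stmn1 (1.48, SE 0.62) and Kif23 (1.08, SE 0.40) lay highest and E2f1 (−1.35, SE 0.56) lowest. Standard errors near 1 log2 unit for most kinases leave these differences wide: Cdk1 stood at 0.76 (SE 0.98) and 0.34 (SE 0.94), Aurkb at 0.61 (SE 1.16) and −0.23 (SE 1.08), and Plk1 at 0.16 (SE 1.30) and −0.17 (SE 1.23). Mki67 stood at 0.03 (SE 0.74) for OVA and −0.73 (SE 0.70) for pGal, and Top2a at −0.24 (SE 0.53) and −0.94 (SE 0.52).

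In therapeutic OT-I cells no member was called in any of the 3 comparisons in edgeR, beside 0% of 14581 genes for pGal against OVA, 0% for pGal against saline and 0.686% for OVA against saline. An unadjusted p under 0.05 was reached by 0, 2 and 1 members, beside 2.87%, 6.53% and 12.8% of all genes, and DESeq2 called 0 in each. Mki67 read 43.6 to 238 CPM after saline (median 92.1), 44.2 to 139 after OVA (median 106.7) and 7.97 to 228 after pGal (median 88.8). Top2a read 47.4 to 195 CPM (median 81.8), 59.6 to 130 (median 86.9) and 13.7 to 119 (median 81.9). The ranges overlapped almost wholly for both genes.

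For OT-I pGal against OVA, log2 differences ran from −0.52 (Ccne2) to 0.38 (Cdt1), with −0.08 for Mki67 (SE 0.41), −0.22 for Top2a (SE 0.33), −0.30 for Birc5, −0.31 for Ccnb1, −0.16 for Cdk1, −0.42 for Aurkb and −0.20 for Plk1. In S phase they were −0.16 for Ccne1, 0.09 for Cdc6, −0.21 for Mcm5, −0.06 for Pcna, 0.00 for Rrm2 and −0.09 for Tyms. For OT-I pGal against saline the extremes were Cdc45 at −0.81 and Hmgb2 at 0.18, with Mki67 at −0.22 (SE 0.44), Top2a at −0.32 and Mcm5 at −0.52. For OT-I OVA against saline they were Cdt1 at −0.77 (SE 0.20, edgeR adjusted p 0.068) and Ccnb2 at 0.42, with Mki67 at −0.14 (SE 0.44), Top2a at −0.09, Birc5 at 0.27 and Aurkb at 0.40. The member medians of the 3 comparisons were −0.17, −0.22 and −0.08.

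Therapeutic OT-II cells gave 1 call: Tk1 fell after OVA against saline, beside 0.927% of 14244 genes lowered and 0.611% raised. It read 8.40 to 30.4 CPM after saline (median 15.0), 3.48 to 8.93 after OVA (median 5.52) and 4.82 to 15.3 after pGal (median 7.28). The OVA and saline ranges overlapped between 8.40 and 8.93 CPM, and the difference was −1.47 (SE 0.38, edgeR adjusted p 0.048). The call was lost with all libraries as labelled, where 0 members were called. In that comparison 40 members lay below 0 and 6 above, beside 44.7% of all genes above 0, with a median of −0.43 against −0.07 over all genes. An unadjusted p under 0.05 was reached by 8 members, near the 15.5% of all genes. Cdc45 (−1.75, SE 0.72), Cdc6 (−1.65, SE 1.17) and Nusap1 (−1.53, SE 0.84) were lowest and Ccne1 (0.52), Mcm6 (0.36) and Ccnb1 (0.34) highest.

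For OT-II pGal against OVA and pGal against saline, edgeR called 0 members (0% and 0.00702% of all genes), with 1 and 4 at an unadjusted p under 0.05, no more than the 7.11% and 8.99% of all genes. DESeq2 called 0 and 2, beside 0.204% and 1.19% of all genes. Medians were 0.20 and −0.25. Against saline, Cdt1 stood at −0.96 (SE 0.23, edgeR adjusted p 0.11), Mki67 at −0.10 (SE 0.38) and Top2a at 0.27 (SE 0.30). Against OVA, Ttk stood at 1.64 (SE 0.99), Cdc45 at 1.62 (SE 0.69), Mki67 at 0.33 and Top2a at 0.28. Mki67 read 6.99 to 82.3 CPM after saline (median 27.8), 10.9 to 36.5 after OVA (median 29.1) and 16.8 to 38.7 after pGal (median 33.7), so the saline range enclosed both others.

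The response to plain OVA was then compared between experiments. In OT-II cells the log2 difference of OVA from saline was larger in the prophylactic than in the therapeutic experiment for 4 members, against 0.343% of all genes; 0 members were smaller. They were Ccnb2 (4.19, SE 1.04), Cenpe, a kinetochore motor (3.53, SE 0.81), Tk1 (3.01, SE 0.54) and Mki67 (2.83, SE 0.70), with edgeR adjusted p-values of 0.048, 0.030, 0.0019 and 0.046. Birc5 stood at 3.53 (SE 0.92, edgeR adjusted p 0.063) and Bub1 at 3.74 (SE 1.69). Ccne1 and Pcna, both at −0.21, and Kif23 at −0.16 were lowest. With all libraries as labelled the count was 0, and without 1 therapeutic OT-II saline library, replicate 2, it was 1.

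Ccnb2 read 0.601 to 4.22 CPM after saline and 9.51 to 32.1 after OVA in prophylactic OT-II cells, with no overlap. In therapeutic OT-II cells it read 0.0299 to 39.8 CPM after saline (median 3.84) and 1.11 to 8.09 after OVA (median 3.26), so that 1 saline library exceeded every OVA library. Cenpe read 0.676 to 2.21 and 4.84 to 9.93 CPM in the prophylactic groups, and 0.293 to 35.7 (median 5.88) and 1.61 to 8.34 CPM (median 4.26) in the therapeutic groups.

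For OT-I cells the same contrast called 0 members in edgeR, against 0.0756% of all genes raised, and 2 in DESeq2 (0.634% of all genes). The member median was 1.43, with 43 of 46 above 0 and 15 at an unadjusted p under 0.05 (6.53% of all genes), while the median of all genes was −0.13. Mki67 stood at 2.55 (SE 0.65, edgeR adjusted p 0.15), Ccna2 at 2.66 (SE 1.09), Ccnb1 at 2.47 (SE 0.91) and Top2a at 1.56 (SE 0.48). Kif23 at −0.38, Mcm2 at −0.21 and Mcm6 at −0.00 were lowest. Priming, time since transfer, pooling of mice and preservation of cells differ between the experiments and cannot be told apart.

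After saline, OT-I cells held more of some members than OT-II cells in both experiments; the therapeutic mice had been immunized with OVA before. In prophylactic saline libraries 7 members were higher and 0 lower, against 3.01% and 1.99% of all genes (5.01% in all), with a median of 0.92. They were Uhrf1 (2.02, SE 0.43), Ccne1 (1.88, SE 0.29, edgeR adjusted p 1.9e-06), E2f1 (1.65), Kif23 (1.30), Top2a (1.23), Mcm3 (1.10) and Tubb5 (0.68). The call of Top2a was lost without libraries holding Cd79a over 100 CPM (edgeR adjusted p 0.17, 5 members called) and with all libraries as labelled (0.20, 2 members called). The latter fit adds therapeutic libraries only and leaves these saline libraries as they were. Added libraries enter through the filter, scaling and dispersion that all groups of the fit share. Ccne1 read 24.9, 25.0 and 23.9 CPM, then 24.1 and 26.1 CPM in OT-I and 5.08, 3.05 and 3.05 CPM, then 15.8 and 9.65 CPM in OT-II libraries, with no overlap. Uhrf1 read 32.9 to 49.6 CPM and 5.33 to 16.8 CPM, also apart. Mki67 stood at 1.37 (SE 0.51) and did not pass, and Cdc45 (−1.14, SE 0.64) and Stmn1 (−0.95) were lowest.

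In therapeutic saline libraries 27 members were higher in OT-I cells and 0 lower, against 5.67% and 6.50% of all genes (12.2% in all). They comprised 12 of 19 S phase members, 12 of 23 mitosis members and 3 of 4 others, and the member median was 1.62. Ccne1 read 33.6 to 59.6 CPM in OT-I (median 47.7) and 6.51 to 16.9 CPM in OT-II cells (median 10.9), apart by 2.13 (SE 0.26, edgeR adjusted p 3.3e-09). Kif23 read 20.6 to 44.1 CPM (median 29.4) and 5.22 to 15.3 CPM (median 7.15), apart by 1.86 (edgeR adjusted p 2.1e-07). Larger differences were those of Bub1 (2.62, not called), Plk1 (2.58), Ttk (2.50), Birc5 (2.40) and Rrm2 (2.19), while Mcm2 (0.13), Mcm7 (0.23) and Cdc45 (−1.23) lay lowest. The 6 NK cell markers summed to 265 to 897 CPM in these OT-I and 13.5 to 107 CPM in these OT-II libraries, and 3 of the 6 were called higher in OT-I cells. Ncr1 was at 0 in 4 and Klra8 in 8 of the 71 libraries, and the other 4 markers in none. The highest value over these libraries was 1227 CPM for Gzma, a granzyme, so a high sum can rest largely on that gene. It was 64.9 CPM for Ncr1, 15.7 for Klra8, 86.0 for Klrb1c, 103 for Klre1 and 181 for Tyrobp. Their part in the member levels was not tested.

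This comparison rested on the coreceptor check. With all libraries as labelled, which puts libraries carrying Cd4 among OT-I and Cd8a among OT-II cells, 0 members were called. Without therapeutic OT-II saline replicate 2, which had the highest member level of its group at 5.37 against a group median of 3.05, 39 were called. The 6 libraries labelled OT-I that carried Cd4 had member levels of 2.51 to 5.21 (median 3.63), and the 5 labelled OT-II that carried Cd8a had levels of 3.89 to 6.09 (median 5.72).

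Between the experiments, saline OT-I cells had lower member levels in the prophylactic one: 29 members were lower and 1 higher, against 8.03% and 7.68% of all genes. The median was −3.03 over mitosis members, 19 of which were lower, and −0.48 over S phase members, 7 of which were lower. Mki67 read 3.73 to 23.6 CPM in prophylactic OT-I libraries of both batches and 43.6 to 238 CPM in therapeutic ones. The fitted difference, at the batch 1 level, was −4.12 (SE 0.56, edgeR adjusted p 6.8e-08). Ccna2 (−3.64), Cdc45 (−3.58), Tk1 (−3.07) and Top2a (−2.80) followed. Mcm2 went the other way, at 174 to 225 CPM against 47.7 to 193 CPM (median 85.5), a difference of 0.92 (SE 0.33, edgeR adjusted p 0.048). NK cell markers summed to 25.1 to 101.5 CPM in the prophylactic libraries, below the therapeutic range, and 3 of 6 were called lower; their part was not tested.

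In saline OT-II cells 18 members were lower and 3 higher in the prophylactic experiment, against 10.4% and 6.35% of all genes, whose median was −0.15. As for OT-I cells, the batch term sets the prophylactic level of this fit at that of batch 1. Mki67 stood at −3.76 (SE 0.55, edgeR adjusted p 4.8e-07), Cdc45 at −3.67 and Top2a at −2.37. Higher were Stmn1 (1.28), Kif23 (0.99) and Pcna (0.57). Without therapeutic OT-II saline replicate 2 the count of 21 became 11. Cdc45 was low in all prophylactic saline libraries, at 6.44 to 14.1 CPM in OT-I and 5.46 to 44.0 CPM in OT-II cells, against 57.5 to 224 and 55.7 to 961 CPM in the therapeutic ones, with no overlap within a cell type. The therapeutic OT-II saline libraries with most Cdc45, replicates 1 (961 CPM) and 7 (435 CPM), had a mitochondrial share of counts of 2.69% and 2.1%, against 0.683% to 0.854% in the other 4, and the lowest Cd4 of the group (332 and 388 CPM). Their member levels were 2.41 and 2.61. The other 4 read 55.7 to 150 CPM of Cdc45, still above the prophylactic range. The highest mitochondrial share among the 71 libraries was 7.31%, in therapeutic OT-II pGal replicate 9, which held Cdc45 at 967 CPM.

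Regulators outside the 46 were read from 4 further lists. In prophylactic OT-I cells after OVA, beside 4.12% of all genes raised and 1.28% lowered, 2 of 9 G1 cyclins and kinases rose, Cdc25b (1.09), a phosphatase that activates Cdk1, and Cdk2 (0.63). Of 6 tested CDK inhibitors 1 rose, Cdkn3 (2.38, SE 0.40), a phosphatase of cyclin-dependent kinases, and of 10 pocket proteins and E2F factors 3 did, E2f8 (2.39), E2f2 (1.63) and E2f3 (1.00). Of 10 genes of growth control, Gmnn, which binds Cdt1, rose by 0.75 and Myc fell by 0.47 (SE 0.12, edgeR adjusted p 0.028). After pGal, beside 2.64% of all genes raised and 0.710% lowered, the called genes were Cdkn3 (1.86), E2f2 (1.44), Cdc25b (0.85) and Myc (−0.47), 1 in each list.

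In prophylactic OT-II cells, beside 6.37% of all genes raised and 5.34% lowered, pGal raised E2f2 (2.47, SE 0.37), Wee1 (1.97), an inhibitory kinase of Cdk1, Cdkn2c (1.65), an inhibitor of Cdk4 and Cdk6, and Cdc25b (1.11), and lowered E2f5 (−0.99) and Klf2 (−0.51), a factor of resting T cells. Plain OVA changed 0 genes of these lists in edgeR, with 7 at an unadjusted p under 0.05 across the 4 lists, beside 7.32% of all genes. Cdkn1a and Cdkn1b, inhibitors of cyclin-dependent kinases, and the D cyclins Ccnd2 and Ccnd3 were not called in any of the 12 treatment comparisons; in OT-I cells after OVA they stood at −0.35, 0.18, −0.43 and −0.04. In therapeutic OT-II cells, beside 0.611% of all genes raised and 0.927% lowered, OVA raised Cdc25b by 1.31 and lowered Klf2 by 0.84. After saline, beside 3.01% of all genes higher and 1.99% lower, prophylactic OT-I cells had more Ccnd2 (1.15), Myc (1.31), Cdk6 (1.20) and Cdk4 (0.81) and less Cdkn1b (−0.88) than OT-II cells.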

How the data were processed

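RNA of sorted OT-I and OT-II cells was converted to cDNA with SmartSeq chemistry, per the labels' protocols. The authors deposited 3 tables of estimated counts for protein-coding genes; bcl2fastq, kallisto 0.46.1 and the build GRCm38 are named in the submitters' processing notes. How transcript estimates became whole numbers per gene is not stated there. The expected counts were used as deposited, and genes of the therapeutic table were named through their Ensembl identifiers. Counts were filtered (filterByExpr), scaled (TMM) and fitted with the robust quasi-likelihood test of edgeR 4.0.16 in R 4.3.3, by experiment and cell type (batch as a term in the prophylactic fits) or over 12 groups for contrasts between cell types and experiments. The fit over 12 groups also carried a term for prophylactic batch 2, so its comparisons of saline between experiments refer to batch 1. Calls were made where the p-value, adjusted by Benjamini-Hochberg over all genes tested, was under 0.05. CPM values are TMM-normalized over all 82 libraries, and member levels are means of log2 CPM with a prior count of 2. Therapeutic fits used the 42 libraries whose coreceptor went with the label. DESeq2 1.42.0, no filter, RLE factors, single batches, all libraries as labelled, a replicate block, removal of libraries with Cd79a over 100 CPM, of OT-I libraries with Cd4 over 100 CPM and of each library in turn were tried as alternatives. The fits were also run on simulated counts that shared the same mean profile, apart from set changes in an OVA group. Those counts held no batch shift, library rich in B cell transcripts or shared mouse, so they cannot show how the fits handle these. The members and lists were chosen with earlier results of these data known; 13 members have values throughout, with the 3 highest and 3 lowest of a comparison, and any other member may be named. Depth was 21.2 to 68.2 M counts per library; reads amplified without molecular identifiers overstate precision, so the spread between libraries was used. B cell, germinal centre and plasma cell, myeloid, erythroid and NK cell marker lists were summed per library.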

Additional observations from a re-analysis of the deposited data

Results flagged for a closer look

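Single libraries that stood far from the rest of their group were sought in 204 group values, and 23 were found; chance flags about 1 in 20. Therapeutic OT-II saline replicate 2 lay above the other 5 libraries for Top2a (78.68 CPM, nearest 32.59), Birc5 (34.16, nearest 12.06), Ccnb1 (24.99, nearest 7.632), Cdk1 (19.95, nearest 4.863), Aurkb (26.1, nearest 6.362), Plk1 (25.01, nearest 4.956), Cdc6 (28.25, nearest 7.519) and Tyms (57.62, nearest 23.31). Its removal is given beside the results it moves. Prophylactic OT-II pGal replicate 1 of batch 2 was high for Mki67 (53.24 CPM, nearest 18.45), Top2a (64.13, nearest 36.06), Ccnb1 (27.35, nearest 10.82) and Tyms (39.21, nearest 21.33).

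Therapeutic OT-I OVA replicate 10 was low: its mean log2 CPM was 3.111 over the 46 genes (nearest 4.832), 4.5 over S phase (nearest 5.583) and 1.353 over mitosis members (nearest 3.89), and the S phase mean exceeded the mitosis mean by 3.147 (nearest 1.692). Its members were uneven, with 0 counts of Cdc6, 1 of Plk1 and 2 of Cdk1, but 2712 of Mki67 and 2052 of Top2a. The low means are therefore not read as less division, and the cause was not tested. Therapeutic OT-II pGal replicate 10 was low for the S phase mean (3.942, nearest 4.631) and Cdk1 (0.1982 CPM, nearest 4.589). This library was uneven too, with 0 counts of Cdc6 and Aurkb and 6 of Cdk1, but 1171 of Mki67 and 1194 of Top2a.

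Among the rest, prophylactic OT-I saline replicate 2 of batch 2 was high for Aurkb (9.262 CPM, nearest 4.074), prophylactic OT-I OVA replicate 2 of batch 1 for Cdc6 (30.04, nearest 16.03) and therapeutic OT-II pGal replicate 9 for Cdc6 (14.28, nearest 4.861). Therapeutic OT-II OVA replicate 1 was low for Ccne1 (11.09 CPM, nearest 16.18) and replicate 4 for Pcna (56.17, nearest 98.34). The response of OT-II cells to OVA differed between the experiments by the edgeR test of the difference for Tk1 (3.01), Mki67 (2.83), Ccnb2 (4.19) and Cenpe (3.53) on the log2 scale.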

How the results depend on the processing

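No called value of the 13 members with values throughout changed sign under any alternative. Apart from leaving out 1 library, the alternatives gave 1521 values of these members, called or not. Of these, 1332 kept direction and side of the threshold, 77 lost a call, 20 gained one and 92 uncalled ones changed sign. Only values called in the main fit could lose a call, so the 77 are a larger share of those. The counts of called members moved as follows, and the cause was not tested. They stand without the share of all genes called in the same fit. A change over all genes therefore cannot be told apart from one in the members. In single batches, OT-I pGal against saline went from 19 to 0 (batch 1) and 12 (batch 2), OT-I OVA against saline from 31 to 1 (batch 2), OT-II pGal against saline from 12 to 6 and 0, OT-II OVA against saline from 1 to 0 and 0, and OT-II pGal against OVA from 0 to 1 (batch 1), all prophylactic and with fewer libraries. DESeq2 called 4 members for prophylactic OT-II pGal against OVA, 11 for OVA against saline, 2 each for therapeutic OT-II pGal against saline and OVA against saline, and 2 and 7 for the OVA response between experiments in OT-I and OT-II cells. Without libraries rich in B cell transcripts the counts were 7 (OT-I pGal against saline), 4 and 0 (OT-II pGal against OVA, OVA against saline), 0 (therapeutic OT-II OVA against saline), and 1 and 2 between experiments in OT-I and OT-II cells. With all libraries as labelled they were 0 (therapeutic OT-II OVA against saline), 0 (OT-II between experiments), 2 (prophylactic saline, OT-I against OT-II), 0 (therapeutic saline) and 17 (OT-I saline between experiments). The prophylactic libraries themselves are the same in that fit. With no filter on low counts, therapeutic OT-II OVA against saline gave 0.

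Replicate numbers did not pair libraries across treatments: 1 of 15, 1 of 13, 3 of 15 and 3 of 13 same-number pairs correlated over 0.1. Same-number OT-I and OT-II libraries of a treatment correlated over 0.1 in 7 of 14 prophylactic (median 0.099) and 11 of 19 therapeutic pairs (median 0.196, highest 0.692), so not in every pair. A replicate block gave 11 members for OT-I pGal against saline, 0 for prophylactic and for therapeutic OT-II OVA against saline and 16 (15 higher, 1 lower) for prophylactic saline OT-I against OT-II, where 7 were called without it.

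Leaving out 1 library gave 5 to 22 members for OT-I pGal against saline, 21 to 33 for OVA against saline, 8 to 18 for OT-II pGal against saline (18 without the first saline library of batch 1), 0 to 2 for pGal against OVA (2 without the third pGal library of batch 1) and 0 to 4 for OVA against saline. Therapeutic OT-I OVA against saline gave 0 to 1 and OT-II OVA against saline 0 to 2. Without therapeutic OT-II saline replicate 2 the counts were 1 (OT-II between experiments), 39 (therapeutic saline, OT-I against OT-II) and 11 (OT-II saline between experiments). Members read at under 1 CPM in saline, such as Bub1, have imprecise differences. In prophylactic OT-II saline libraries Bub1 held 0 counts at depths of 57.4, 45.1 and 32.9 M, and 47 and 12 counts at 51.5 and 35.4 M. What set these zeros was not tested.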
